A study of Mus musculus with 12 samples.

Results

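Hearts of mice that received sorafenib together with PLX3397 were compared with hearts of mice that received sorafenib without it. The comparison takes 6 of the 12 heart RNA libraries of the study, 3 labelled sorafenib_plx3397 and 3 labelled sorafenib, and all genes of the deposited table. The other 6 libraries, 3 labelled plx3397 and 3 labelled ctrl, entered the model that estimates the spread and are given where a level or a difference is set beside them. All mice were C57BL/6J. The hearts of the 6 libraries compared were collected after 28 days of sorafenib dosing, with or without an agent meant to clear macrophages. Day 28 is also given for the plx3397 and ctrl libraries, whose labels name no sorafenib. Doses, routes, sex, age, the part of the heart taken and the treatment of the controls are not given in the labels. Nor do the labels say that each library came from a separate mouse, so p-values measure only the spread between these samples, which may be technical. RNA was poly(A)-selected from heart tissue, so each value is a sum over all cell types.

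Macrophages are resident immune cells of the heart that clear debris and dying cells and talk to cardiomyocytes and fibroblasts. They need signals through the receptor CSF1R, which binds the ligands CSF1 and IL-34, for survival, and PLX3397 (pexidartinib) is a small molecule that inhibits CSF1R and also the related receptor kinases KIT and FLT3. Sorafenib is a multikinase inhibitor used against liver, kidney and thyroid cancer that acts on RAF kinases and on receptors for VEGF and PDGF, and cardiac toxicity is a known side effect. The question put by the comparison is what the macrophage-directed agent adds in hearts already exposed to sorafenib.

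No single gene passed the test between hearts with sorafenib plus PLX3397 and hearts with sorafenib. Macrophage and complement genes, fibrillar collagens and the clock activator Arntl had values below 0 (lower with both agents), and clock repressors, clock output factors and several cardiomyocyte genes had values above 0. Over all genes, 50.2% had values below 0 and 49.8% above 0. The quasi-likelihood test of edgeR gave 0 called genes of 18897 (0%), with a smallest adjusted p of 0.160. At an unadjusted p under 0.05 there were 1216 genes (6.43%), 549 of them with higher values (2.91%) and 667 with lower ones (3.53%), against 944.85 if no gene differed. The Wald test of DESeq2 called 65 genes, 28 higher and 37 lower, and limma on deposited FPKM called 0 with 1128 at an unadjusted p under 0.05. The 3 libraries of one group lay entirely to one side of the 3 of the other for 2380 genes (12.6%), 1207 higher (6.39%) and 1173 lower (6.21%). Over all genes the median log2 fold change was -0.001, and 85 genes of at least 1 FPKM differed by at least 2-fold. Log2 fold changes are given as sorafenib plus PLX3397 over sorafenib, ± the standard error (SE), and levels in CPM (counts scaled to a common library size). The median SE was 0.12 among the 10657 genes of at least 1 FPKM.

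The 6 libraries held 61672657 to 62905068 estimated counts each, of which mitochondrial genes took 30.6% to 33.6%. Correlations of log2 CPM were 0.964 to 0.970 between libraries of the same group and 0.962 to 0.971 between libraries of different groups. On the first principal component, with 25.1% of the variance, the libraries with both agents lay at 36.4, 41.2 and -15.6 and those with sorafenib at -58.4, 23.6 and -27.1, so the groups overlapped. Heart identity was clear from Myh6, the alpha myosin heavy chain of adult mouse cardiomyocytes, at 15183, 12132 and 10473 CPM with both agents and 11530.2, 12005 and 10999 CPM with sorafenib. Sorafenib replicate 1 stood apart in atrial genes and sorafenib replicate 3 in macrophage genes. Some of the medians and values that either library moved are given without it too, but not all.

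**Figure D1:**
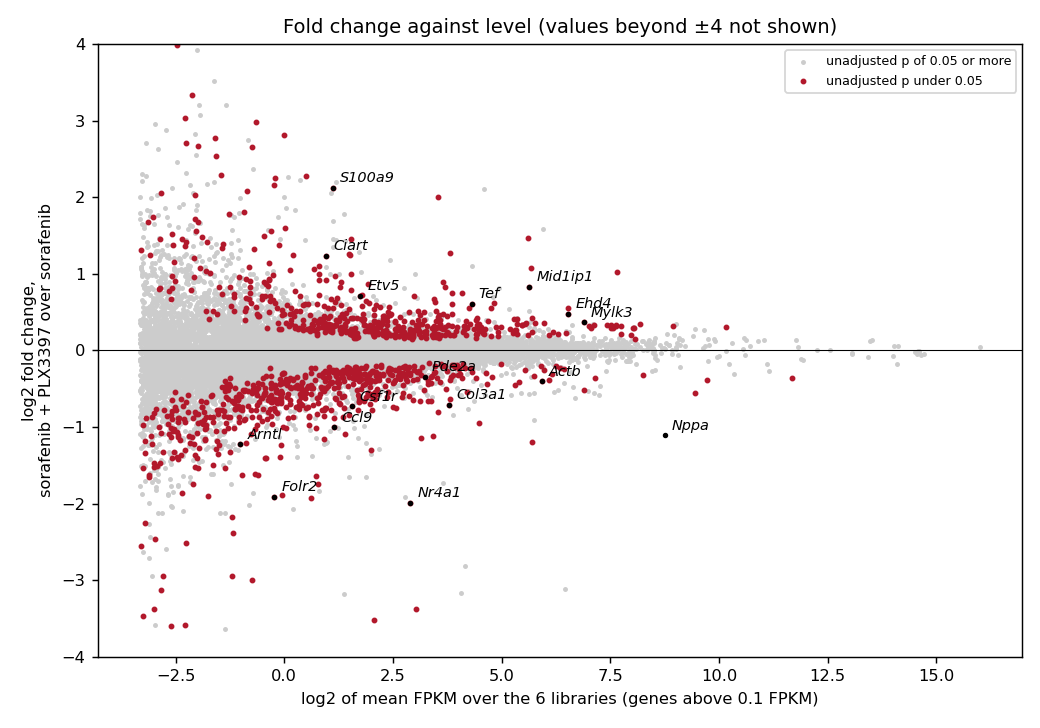
Log2 fold change (sorafenib plus PLX3397 over sorafenib) against log2 of the mean FPKM over the 6 libraries, 1 point per gene above 0.1 FPKM. Red points have an unadjusted p under 0.05, and named genes are black. Points lie on both sides of 0, and no gene passed at an adjusted p under 0.05.

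Csf1r encodes the receptor that PLX3397 inhibits and marks macrophages and monocytes. Its level was 11.99, 15.8 and 15.5 CPM in the libraries with both agents and 21.5, 19.6 and 30.4 CPM in those with sorafenib. All 3 libraries with both agents lay below all 3 with sorafenib, by -0.73 ± 0.17 on the log2 scale (adjusted p = 0.435), or -0.51 without sorafenib replicate 3. In the hearts labelled with PLX3397 and no sorafenib it was 52.4, 38.4 and 41.8 CPM, and in controls 59.1, 48.3 and 53.7 CPM, a difference of -0.28 ± 0.16. Hearts with both agents thus had the least Csf1r, and PLX3397 hearts were nearer to controls than sorafenib hearts were. Because the libraries labelled plx3397 held nearly as much Csf1r as controls, the groups are called by their labels, and whether PLX3397 cleared macrophages in those hearts was not tested.

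Among 9 genes of PLX3397's target receptors and their ligands, 1 reached an unadjusted p under 0.05, which was Csf1r, beside 6.43% of all genes. Il34, a CSF1R ligand, did not overlap between the groups, with 2.14, 2.43 and 2.85 CPM in hearts with both agents and 3.12, 2.93 and 3.20 CPM with sorafenib (-0.32 ± 0.19, adjusted p = 0.840). Kit, the stem cell factor receptor, had 4.69, 6.33 and 2.76 CPM with both agents and 3.43, 8.26 and 2.51 CPM with sorafenib (-0.04 ± 0.38), so the groups overlapped. Its ligand gene Kitl stood at 0.22 ± 0.11 (adjusted p = 0.788). Flt3 was near its detection limit, with at most 0.173 CPM in the 3 libraries with both agents and 0.128 CPM in those with sorafenib. The median of the 9 genes was -0.07, against -0.001 over all genes, and depended on single libraries, at -0.25 with sorafenib replicate 3 left out and -0.28 with replicate 2 of both agents left out.

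Most resident cardiac macrophage markers had lower values with both agents. Of 25 markers, 23 had values below 0, where 50.2% of all genes had. At an unadjusted p under 0.05, 12 were lower and 0 higher, where 3.53% of all genes were lower. Beside 6.21% of all genes, 7 of the markers were lower without overlap. None had an adjusted p under 0.05. Their median was -0.66, while the same list had a median of -0.08 in PLX3397 hearts against controls. Heart RNA cannot tell fewer macrophages from less RNA per macrophage, and the same holds for every cell type named here.

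Folr2, a folate receptor of long-lived resident macrophages, had 0.439, 0.638 and 0.794 CPM in hearts with both agents and 1.09, 1.44 and 4.52 CPM with sorafenib. The groups did not overlap, and sorafenib replicate 3 was far above the other sorafenib libraries (-1.91 ± 0.46, adjusted p = 0.435). Without that replicate Folr2 was at -1.01. Timd4, the phosphatidylserine receptor TIM-4 used to take up dying cells, had 0.0675, 0.190 and 0.215 CPM with both agents and 0.401, 0.326 and 0.480 CPM with sorafenib. Here the sorafenib libraries lay close together and all above those with both agents (-1.34 ± 0.38, adjusted p = 0.548). Cx3cr1, the fractalkine receptor, followed with 0.945, 0.535 and 0.678 CPM with both agents and 1.65, 1.18 and 1.31 CPM with sorafenib (-0.94 ± 0.24, adjusted p = 0.435). Igf1, a growth factor made by macrophages and fibroblasts, stood at -0.54 ± 0.16. These 3 low-level genes and Igf1 are the members with the smallest p. In PLX3397 hearts against controls the same genes had values of -0.32 for Folr2, -0.13 for Timd4, 0.20 for Cx3cr1 and -0.08 for Igf1. Members that went the other way were the chemokine gene Ccl8 (0.85) and Cbr2 (0.997), and the hyaluronan receptor gene Lyve1 was at -0.00034. These 3 were chosen after their values were seen.

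The mean log2 CPM of the resident macrophage list, set to 0 at the sorafenib mean, was -0.73, -0.41 and -0.60 in hearts with both agents and 0.12, -0.31 and 0.19 in hearts with sorafenib. It was 1.03, 0.93 and 0.91 with PLX3397 and 1.22, 0.88 and 1.11 in controls. The groups with and without PLX3397 under sorafenib did not overlap, whereas PLX3397 and control libraries did. Without sorafenib replicate 3 the median of the list was -0.42, with replicate 3 of the combination left out -0.44, and with limma on FPKM, where a pseudocount pulls low genes toward 0, it was -0.27. The median stayed below 0 in all 15 alternatives, between -0.72 and -0.27. Of the macrophage genes named here, the Wald test of DESeq2 called Csf1r, Folr2, C1qa, C1qc and Ccl9.

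**Figure D2:**
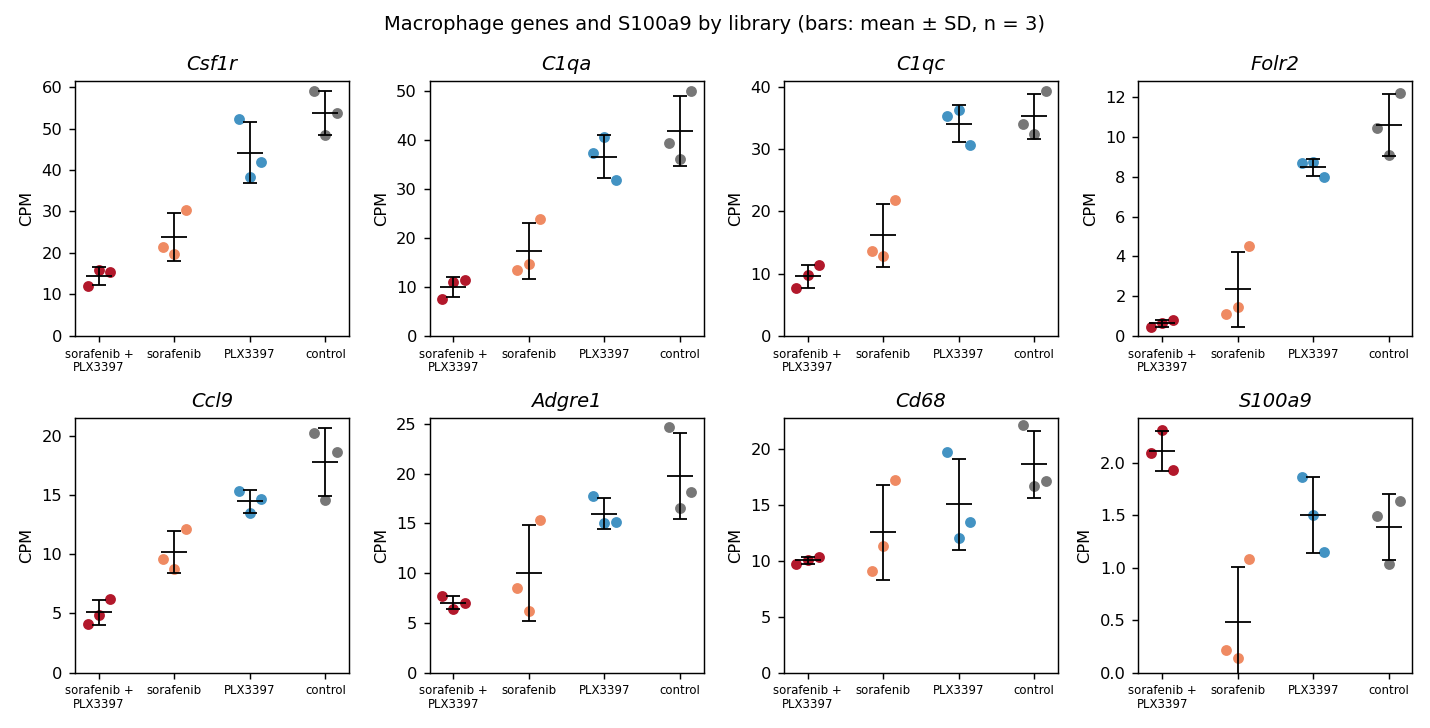
CPM of macrophage genes and of S100a9 in each library, with bars at the mean and SD of 3 libraries per group, from sorafenib plus PLX3397 on the left to control on the right. Csf1r, C1qa, C1qc, Folr2 and Ccl9 are lowest with both agents, while Adgre1 and Cd68 overlap between both agents and sorafenib and S100a9 is higher with both agents.

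Genes that most macrophages express gave the same sign with more overlap. Of 26 pan-macrophage genes, 25 were below 0, with a median of -0.50. In the lower direction, 6 had an unadjusted p under 0.05, beside 3.53% of all genes, and 3 did not overlap, beside 6.21%. Adgre1, the gene of the F4/80 antigen, had 7.71, 6.42 and 7 CPM with both agents and 8.49, 6.17 and 15.4 CPM with sorafenib (-0.51 ± 0.27, adjusted p = 0.817). Cd68, a lysosomal glycoprotein of phagocytes, had 9.68, 10.04 and 10.3 CPM with both agents and 9.06, 11.3 and 17.2 CPM with sorafenib (-0.32 ± 0.22, adjusted p = 0.895). In both genes sorafenib replicate 3 was the highest of the 6 libraries and another sorafenib library was the lowest, and without that replicate Adgre1 was at -0.05 and Cd68 at -0.02. The list score was -0.57, -0.24 and -0.47 with both agents and -0.30, -0.29 and 0.59 with sorafenib, and without sorafenib replicate 3 the median was -0.10. Leaving out this library thus moved the median further for pan-macrophage genes than for resident markers. The exception to the sign was Lyz1 (0.50, chosen after its value was seen), whose reads are hard to separate from those of its near-identical neighbour Lyz2.

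Complement genes, several of which macrophages make in the heart, had values on the same side as the resident markers. C1qa, a chain of the complement recognition protein C1q, had 7.56, 10.9 and 11.4 CPM with both agents and 13.5, 14.7 and 23.9 CPM with sorafenib, without overlap (-0.80 ± 0.22, adjusted p = 0.573). C1qc, another chain, had 7.64, 9.73 and 11.4 CPM with both agents and 13.7, 12.9 and 21.9 CPM with sorafenib (-0.75 ± 0.19, adjusted p = 0.435). C1qb, the remaining chain, stood at -0.63 ± 0.20, again without overlap. Without sorafenib replicate 3 the values were -0.50 for C1qa, -0.47 for C1qc and -0.30 for C1qb. All 3 chains were thus lower with both agents in every library, though by amounts that the test across all genes did not pass. C3ar1, the receptor for the fragment C3a, stood at -0.71. Of 17 complement genes 14 were below 0, 5 of them at an unadjusted p under 0.05, beside 3.53% of all genes. The list median was -0.58 (-0.30 without sorafenib replicate 3 and -0.33 without replicate 1 of both agents). Of the components that fibroblasts and other cells also make, C3 was at 0.07, C1s1 at -0.03 and C1ra at 0.03. These 3 were chosen after their values were seen, and the 17 genes ranged from -0.90 to 0.37.

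Of the chemokine and cytokine genes, Ccl9 had the second smallest p among the genes named by p. Ccl9 (mm10, chr11:83572919-83578636) encodes a chemokine made by macrophages and other myeloid cells that attracts cells with the receptor CCR1. It had 4.10, 4.88 and 6.24 CPM in hearts with both agents and 9.62, 8.73 and 12.1 CPM in hearts with sorafenib. The libraries with both agents lay below every other library of the study, as PLX3397 hearts had 15.3, 13.4 and 14.6 CPM and controls 20.2, 14.6 and 18.6 CPM. The difference was -1.002 ± 0.17 (adjusted p = 0.174), ranged from -1.18 to -0.82 over the alternatives, and was -0.30 ± 0.17 between PLX3397 hearts and controls. The whole list of 31 cytokines and chemokines had 3 members at an unadjusted p under 0.05, all lower, beside 3.53% of all genes. The list median was -0.22 (-0.30 to -0.10 over the alternatives, nearest to 0 without replicate 3 of both agents). Ccl7, a monocyte attractant, was at -0.78, and Tgfb3 at -0.38.

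Genes of antigen presentation had smaller values. H2-Eb1, an MHC class II beta chain, had 11.7, 12.3 and 11.3 CPM with both agents and 14.99, 15.6 and 21.4 CPM with sorafenib (-0.56 ± 0.22, adjusted p = 0.722). Cd74, the class II invariant chain, stood at -0.53 ± 0.25 and H2-Aa at -0.59 ± 0.29, and in all 3 the groups did not overlap. Without sorafenib replicate 3 the values were -0.38 for H2-Eb1, -0.32 for Cd74 and -0.43 for H2-Aa. Of 17 class II and dendritic cell genes 14 were below 0, with a median of -0.29, beside -0.40 in PLX3397 hearts against controls. Relative to the control mean, the list score was 0.13, -0.03 and -0.91 in PLX3397 libraries, so replicate 3 was the low one. Controls had -0.02, 0.16 and -0.14. At an unadjusted p under 0.05, 1 of the 17 was lower, and 3 were lower without overlap, beside 3.53% and 6.21% of all genes. The median of -0.29 became -0.55 when replicate 2 of the combination was left out. It was -0.12 when its replicate 3 was left out and -0.11 with limma. All 15 class I and immunoproteasome genes were below 0, with a median of -0.26. Of these, 2 had an unadjusted p under 0.05 and 3 did not overlap, beside 3.53% and 6.21% of all genes in that direction. Reads of the H2-T and H2-Q genes are shared among near-identical copies, so single values such as that of H2-T22 (-0.61) are uncertain. In PLX3397 hearts against controls the class I list had a median of 0.19.

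Interferon-stimulated genes were mostly below 0 too, 32 of 36, with a median of -0.21 and 0.18 in PLX3397 hearts against controls. Trim30a, an interferon-induced regulator of innate sensing in the mouse, had 5.72, 6.31 and 5.25 CPM with both agents and 6.60, 9.17 and 8.02 CPM with sorafenib (-0.46 ± 0.15, adjusted p = 0.593). Irf7, which drives type I interferon expression, stood at -0.42 ± 0.18, and the groups did not overlap in either gene. The list had 5 members at an unadjusted p under 0.05, all lower, beside 3.53% of all genes. Its median was -0.11 without sorafenib replicate 2. The median ranged from -0.26 to -0.11 over the alternatives.

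Circulating immune cell markers lay on the other side of 0, at low levels. S100a9, a calcium-binding alarmin of neutrophils and monocytes, had 2.09, 2.31 and 1.94 CPM in hearts with both agents and 0.217, 0.137 and 1.09 CPM with sorafenib. The libraries with both agents were close together, and sorafenib replicate 3 was well above the other sorafenib libraries. S100a9 stood at 2.12 ± 0.55 (adjusted p = 0.439) and passed in edgeR without that library, at 3.56 (adjusted p = 0.0102). PLX3397 hearts had 1.86, 1.5 and 1.15 CPM and controls 1.49, 1.03 and 1.63 CPM, so the sorafenib hearts rather than those with both agents were the low group. Its partner S100a8 stood at 1.56 ± 0.63, and the chemokine receptor gene Cxcr2 was detected at 0.708, 0.138 and 0.381 CPM with both agents and 0, 0.137 and 0 CPM with sorafenib. Nr4a1, which is both a gene of patrolling monocytes and an immediate early gene, went the other way with 7.74, 13.1 and 14.6 CPM with both agents and 59.9, 21.9 and 59.1 CPM with sorafenib (-1.99 ± 0.75, adjusted p = 0.722). Of 17 monocyte and neutrophil markers tested, 11 were above 0 with a median of 0.58. Leaving out sorafenib replicate 3 gave a median of 1.05, leaving out sorafenib replicate 1 gave 0.19, leaving out replicate 2 of both agents gave 0.14, and it was 0.07 with the stricter filter on low counts, which left only the more abundant members.

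Lymphocyte markers were low in all libraries. Cd79a, a chain of the B cell receptor complex, had 0.894, 1.38 and 0.943 CPM with both agents and 0.201, 0.497 and 0.240 CPM with sorafenib, without overlap (1.77 ± 0.52, adjusted p = 0.585). The immunoglobulin light chain gene Igkc ranged widely, at 5.01, 21.5 and 7.51 CPM with both agents and 1.55, 1.41 and 5.50 CPM with sorafenib (2.005 ± 0.83). Of 19 B, T and NK cell markers 15 were above 0 and 2 had an unadjusted p under 0.05, both higher, beside 2.91% of all genes. The list median was 0.67 (0.07 with limma on FPKM and 0.34 without sorafenib replicate 1). Relative to the control mean, the list score was -0.55, 0.28 and -0.09 with both agents and -1.04, -0.49 and -0.26 with sorafenib. Controls themselves had -0.13, -0.39 and 0.52, so hearts with both agents were not above controls as a group. Mast cell markers, whose cells depend on KIT, had a median of -0.62 over 7 genes. It was -0.16 without sorafenib replicate 3 and -0.23 without replicate 1 of both agents. It was -1.34 without replicate 2 of both agents, a library with a list score of 0.10 against -1.12 and -1.28 in the other libraries with both agents.

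Clock genes separated the groups in both directions. The circadian clock is a feedback loop in which BMAL1 (gene Arntl) and CLOCK or NPAS2 bind E-box elements and drive the repressors Per, Cry and Ciart and the output factors Dbp, Tef and Hlf, which pass the rhythm on to target genes. The time of day at which hearts were collected is not given in the labels. RefSeq promoters (GRCm38.p6, 250 bases before to 50 after the gene start) are shown for the 3 repressor or output genes with the smallest p, with each E-box, CACGTG, in capitals. Tef lies at chr15:81802423-81802722 on the plus strand, Ciart at chr3:95882179-95882478 on the minus strand and Hlf at chr11:90390868-90391167 on the minus strand. The gene Tef has 2 starts in that table, and the first was used.
Tef: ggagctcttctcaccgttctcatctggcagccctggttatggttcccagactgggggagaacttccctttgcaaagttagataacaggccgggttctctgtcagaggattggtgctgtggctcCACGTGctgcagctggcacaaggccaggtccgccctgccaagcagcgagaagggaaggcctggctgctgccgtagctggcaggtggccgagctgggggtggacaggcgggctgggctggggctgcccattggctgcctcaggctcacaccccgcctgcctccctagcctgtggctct
Ciart: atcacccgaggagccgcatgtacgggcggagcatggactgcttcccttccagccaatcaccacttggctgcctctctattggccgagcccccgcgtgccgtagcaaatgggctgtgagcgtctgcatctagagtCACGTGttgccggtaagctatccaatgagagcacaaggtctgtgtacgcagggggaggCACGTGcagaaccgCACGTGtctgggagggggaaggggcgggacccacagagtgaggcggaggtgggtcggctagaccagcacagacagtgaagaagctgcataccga
Hlf: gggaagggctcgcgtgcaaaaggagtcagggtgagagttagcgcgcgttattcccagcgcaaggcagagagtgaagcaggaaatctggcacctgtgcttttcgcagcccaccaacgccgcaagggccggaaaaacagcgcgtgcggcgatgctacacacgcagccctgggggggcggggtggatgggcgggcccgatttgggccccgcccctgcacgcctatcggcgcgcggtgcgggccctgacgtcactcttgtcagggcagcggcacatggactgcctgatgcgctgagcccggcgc
The Tef promoter held 1 E-box, 127 bases before the start, and that of Ciart 3, at 116, 58 and 44 bases before it, while CACGTG was not in this window of Hlf. The palindrome CACGTG occurred in 2349 of 32851 RefSeq promoters of that length (7.15%), where a gene can have more than 1 promoter. It occurred in 5 of 12 promoters of clock repressors and output factors (41.7%), those of Ciart, Bhlhe41, Cry1, Per1 and Tef. These 12 are the genes of the lists that had a promoter there, with 1 start each, so the shares are counted differently. The motif AGGTCA, which REV-ERB and ROR factors bind, searched on both strands, was in none of the 3 windows shown, in 16.3% of all promoters and in 2 of the 12 (16.7%). The motifs can share the bases CA, which happens in none of the windows shown, as these hold no AGGTCA.

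Tef, a PAR bZIP output factor, had 254, 179 and 208 CPM in hearts with both agents and 144, 142 and 134 CPM in hearts with sorafenib. It had 82.3, 96.4 and 75.9 CPM with PLX3397 and 77.3, 81.2 and 84.8 CPM in controls. Every library with both agents was above every sorafenib library, and those were above all PLX3397 and control libraries. The difference from sorafenib was 0.61 ± 0.12 (adjusted p = 0.404), while PLX3397 hearts stood at 0.07 ± 0.12 from controls. Hlf, of the same family, had 47.2, 34.6 and 43.4 CPM with both agents and 31.0, 26.7 and 26.5 CPM with sorafenib (0.57 ± 0.14, adjusted p = 0.435). Dbp, the third member of that family and chosen after its values were seen, had 154, 114 and 83.6 CPM with both agents and 81.1, 73.2 and 73.6 CPM with sorafenib (0.62 ± 0.21). The lowest library with both agents was only just above the highest with sorafenib for Dbp. The median of 7 output factors was 0.57, and 0.10 in PLX3397 hearts against controls. The first of these ranged from 0.39, without replicate 1 of both agents, to 0.64 over the alternatives. Of the 7 factors, 6 were above 0. At an unadjusted p under 0.05 there were 6, and 5 did not overlap, beside 2.91% and 6.39% of all genes in the higher direction. The exception was Nr1d1, the gene of REV-ERB alpha, at -0.12, chosen after its value was seen.

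Ciart, a repressor of CLOCK and BMAL1, had 10.4, 6.38 and 4.63 CPM with both agents and 3.41, 2.76 and 2.91 CPM with sorafenib. PLX3397 hearts had 0.631, 0.742 and 0.871 CPM and controls 0.917, 1.12 and 1.25 CPM, so the sorafenib groups were the high ones. It stood at 1.24 ± 0.27 (adjusted p = 0.435), with replicate 1 of both agents the highest, and at 0.86 in the alternative with the smallest value. Per3, a period gene, had 49.2, 34.8 and 36.4 CPM with both agents and 27.8, 21.8 and 20.3 CPM with sorafenib (0.78 ± 0.20, adjusted p = 0.435). Cry1, a cryptochrome gene, had 10.7, 7.45 and 14.2 CPM with both agents and 6.82, 7.29 and 6.04 CPM with sorafenib (0.68 ± 0.19). The sorafenib libraries were below PLX3397 and control for Cry1, at 8.85 ± 0.749 and 9.33 ± 1.17 CPM (SD, n = 3), and not above them as for Tef, Ciart and Per3. Bhlhe41 stood at 0.48 ± 0.15, and Per2 (0.89) and Cry2 (0.46), both named after their values were seen, did not overlap either. All 8 repressors were above 0, 6 at an unadjusted p under 0.05, beside 2.91% of all genes. The list had a median of 0.58, and -0.05 in PLX3397 hearts against controls. The median ranged from 0.45 to 0.72 over the alternatives.

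Activators of the clock split by role. Arntl, the gene of BMAL1, had 1.47, 3.95 and 2.22 CPM in hearts with both agents and 5.81, 6.45 and 5.61 CPM in hearts with sorafenib. The values with PLX3397 were 14.2, 10.4 and 15.9 CPM and those of controls 17.0, 15.1 and 12.3 CPM, so the order was the reverse of that of Tef, with no overlap at any step between both agents, sorafenib and the remaining libraries. The difference from sorafenib was -1.23 ± 0.28 (adjusted p = 0.435). Npas2 had 1.92, 2.02 and 1.69 CPM with both agents and 3.44, 3.39 and 2.25 CPM with sorafenib (-0.69 ± 0.23), and Clock 25.7, 30.5 and 26.5 CPM with both agents and 40.0, 37.5 and 33.7 CPM with sorafenib (-0.43 ± 0.15). Rora, a receptor that activates Arntl, stood at 0.21 ± 0.09, in the opposite direction. The list of 7 activators had 3 lower and 1 higher at an unadjusted p under 0.05, beside 3.53% and 2.91% of all genes. Its median was 0.02. That median had no firm sign, at -0.20 when replicate 3 of the combination was left out, 0.14 when its replicate 2 was left out and -0.04 without sorafenib replicate 1. The mean score of the list was -0.33, -0.28 and -0.23 with both agents and 0.04, 0.09 and -0.13 with sorafenib, without overlap. Under DESeq2's Wald test Tef, Hlf, Ciart, Per3 and Arntl were among the 65 genes called.

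**Figure D3:**
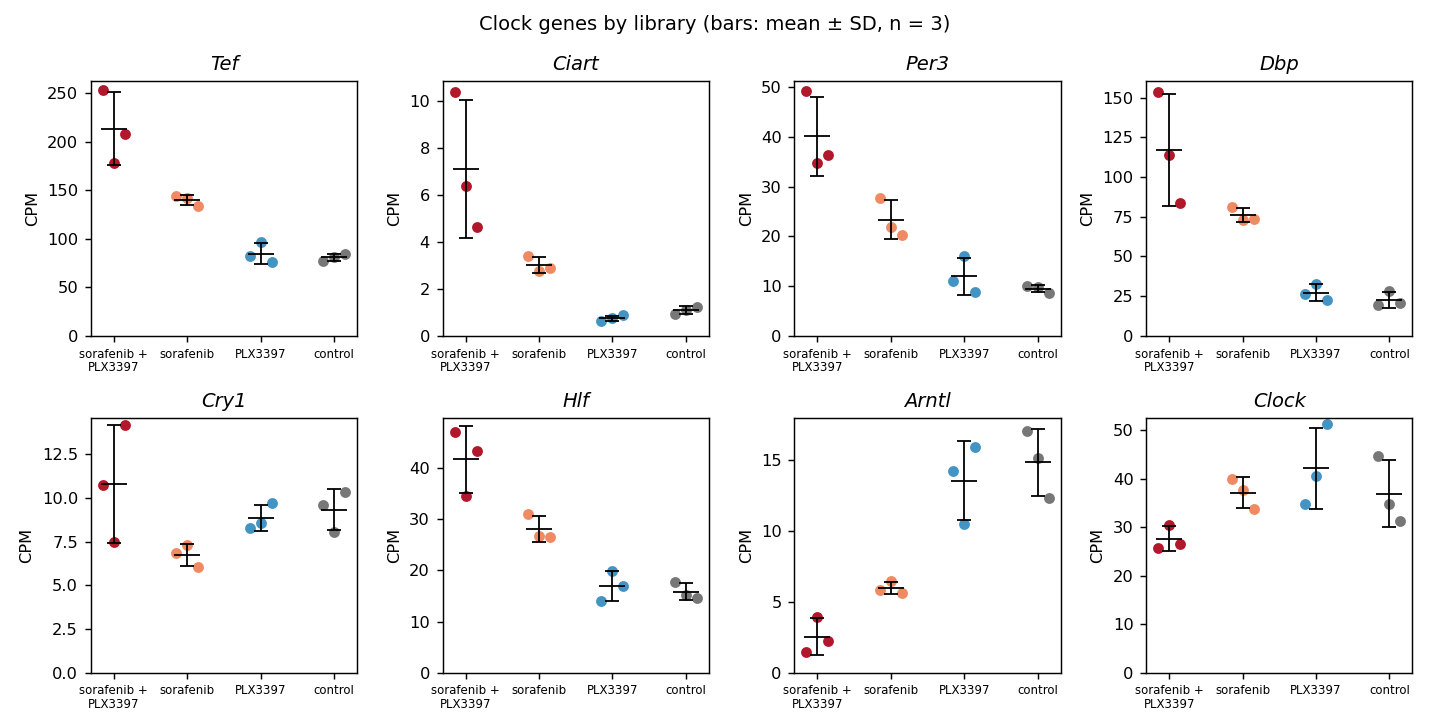
CPM of clock genes in each library, with bars at the mean and SD of 3 libraries per group. Tef, Ciart, Per3, Dbp, Cry1 and Hlf are higher with sorafenib plus PLX3397 than with sorafenib in every library, and Arntl and Clock are lower in every library.

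Matrix genes were mostly lower with both agents, and varied between libraries of the same group. Col3a1, the chain of type III collagen, had 163, 99.8 and 89.3 CPM in hearts with both agents and 198, 188 and 189 CPM with sorafenib. The sorafenib libraries were close together and above all libraries with both agents, of which replicate 1 was the highest (-0.71 ± 0.17, adjusted p = 0.435). Without that library Col3a1 passed in edgeR, at -1.02 (adjusted p = 0.000454). Sparc, a collagen-binding matrix protein, had 176, 150.0 and 141 CPM with both agents and 193, 230.0 and 199.5 CPM with sorafenib (-0.42 ± 0.10, adjusted p = 0.435). Fbn1, which forms microfibrils, and Loxl1, which crosslinks elastin, stood at -0.46 ± 0.15 and -0.30 ± 0.10, both without overlap. Col1a1, the chain of type I collagen, had 74.3, 53.6 and 48.0 CPM with both agents and 90.1, 55.0 and 74.2 CPM with sorafenib (-0.32 ± 0.18), so the groups overlapped. Postn, made by activated fibroblasts, overlapped as well, at 32.5, 22.2 and 51.3 CPM with both agents and 71.6, 28.5 and 58.7 CPM with sorafenib (-0.58 ± 0.35). Without sorafenib replicate 1 Col1a1 was at -0.14 and Postn at -0.30.

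Of 32 fibrillar collagen and matrix genes 27 were below 0, with a median of -0.33 (-0.06 in PLX3397 hearts against controls). At an unadjusted p under 0.05 there were 10, all lower, beside 3.53% of all genes, and 7 were lower without overlap, beside 6.21%. The list score was -0.26, -0.66 and -0.07 with both agents and 0.36, -0.46 and 0.10 with sorafenib, so sorafenib replicate 2 was below 2 of the libraries with both agents. Without sorafenib replicate 1 the median was -0.21. Fibroblast identity genes differed less, with a median of -0.18 over 16 genes, and 0.0045 without sorafenib replicate 1. Dpt, a dermal and cardiac fibroblast gene, had 64.0, 59.0 and 73.7 CPM with both agents and 113, 64.9 and 91.5 CPM with sorafenib (-0.45 ± 0.15), and Meox1, a factor of activated fibroblasts, stood at -0.55 ± 0.17. Basement membrane genes had a median of -0.11 (-0.20 without replicate 1 of both agents to -0.02 without sorafenib replicate 2), with Col15a1 at -0.61 ± 0.22 and Col4a1 at -0.36 ± 0.15. Adipocyte markers varied between the same libraries, with scores of -1.19, -1.13 and 0.51 with both agents and 0.81, -0.96 and 0.15 with sorafenib. The part of these differences in the matrix values was not tested.

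**Figure D4:**
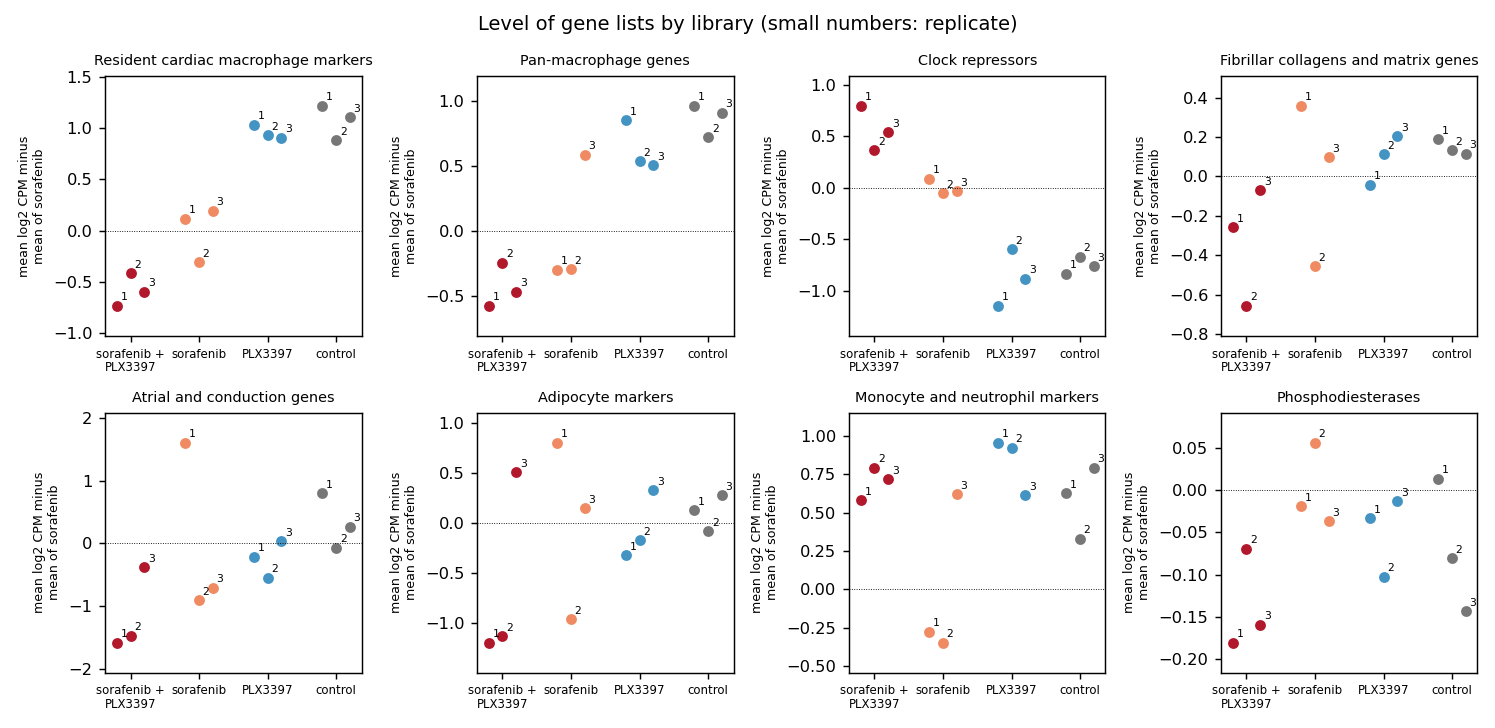
Mean log2 CPM of 8 gene lists in each library minus the mean of the sorafenib libraries, 1 point per library with its replicate number, from sorafenib plus PLX3397 on the left to control on the right. Resident macrophage markers are lower and clock repressors higher with both agents than with sorafenib without overlap, and sorafenib replicate 1 stands apart in the atrial genes.

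Cardiomyocyte genes of the contractile apparatus had slightly higher values with both agents. Myom2, which crosslinks the sarcomere's M-band, had 1148, 859 and 1305 CPM in hearts with both agents and 832, 756 and 669 CPM with sorafenib, without overlap (0.55 ± 0.14, adjusted p = 0.435). Mylk3, the cardiac myosin light chain kinase, had 648, 580.0 and 719 CPM with both agents and 527, 488 and 491 CPM with sorafenib (0.37 ± 0.08, adjusted p = 0.435). Its relative Mylk4 had 199, 135 and 103 CPM with both agents and 85.7, 85.5 and 76.2 CPM with sorafenib (0.82 ± 0.21). The values with both agents were spread more widely for Mylk4 than those with sorafenib, and none overlapped. Actn2, of the Z-disc, stood at 0.20 ± 0.08, and Tcap at 0.31 ± 0.14. Of 22 contractile genes 19 were above 0, 4 at an unadjusted p under 0.05, beside 2.91% of all genes. The list had a median of 0.13, against -0.10 in PLX3397 hearts versus controls. The beta myosin gene Myh7, which rises in the stressed adult mouse heart, had 647, 457 and 684 CPM with both agents and 484, 471 and 435 CPM with sorafenib, with overlap (0.36 ± 0.15, adjusted p = 0.738). The skeletal actin gene Acta1, chosen after its value was seen, went the other way at -0.91 without overlap.

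Natriuretic peptide genes overlapped between the groups. Nppa, of atrial natriuretic peptide, had 300.2, 224 and 280.0 CPM in hearts with both agents and 1324, 251 and 152 CPM with sorafenib. It stood at -1.10 ± 0.74 (adjusted p = 0.894), but at 0.41 without sorafenib replicate 1, the library with the high value. The atrial gene Bmp10 had 0.590, 0.828 and 0.993 CPM with both agents and 187, 0.789 and 0.911 CPM with sorafenib, so the same library stood apart. The median of 14 atrial and conduction genes was -1.11 with that library and -0.26 without it. Nppb, of B-type natriuretic peptide, had 146, 117 and 146 CPM with both agents and 101, 124 and 96.3 CPM with sorafenib (0.34 ± 0.46). Among 18 cardiac stress genes 4 had an unadjusted p under 0.05, all higher, beside 2.91% of all genes. These 4 included Ankrd1, a stretch-responsive gene of the sarcomere, at 0.34 ± 0.15 and Xirp1, an intercalated disc gene, at 0.28 ± 0.09. Of the 18 stress genes, 10 were above 0 and 8 below. Without overlap, 2 were higher and 2 lower, beside 6.39% and 6.21% of all genes. The median of that list was 0.07 and had no firm sign, as leaving out sorafenib replicate 1 gave 0.26, leaving out sorafenib replicate 2 gave -0.04, and leaving out replicate 1 of the combination gave -0.01.

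Metabolic genes differed by small amounts. Idh2, the mitochondrial isocitrate dehydrogenase, had 1651, 1473 and 1660.1 CPM in hearts with both agents and 1249, 1325 and 1274 CPM with sorafenib, without overlap (0.31 ± 0.08, adjusted p = 0.439). Of 30 glycolysis and citrate cycle genes 29 were above 0, though the median was 0.08. An unadjusted p under 0.05 was reached by 3, all higher, beside 2.91% of all genes. Foxo3, a transcription factor restrained by insulin signalling, had 101, 83.1 and 88.2 CPM with both agents and 71.6, 68.0 and 66.3 CPM with sorafenib (0.40 ± 0.09, adjusted p = 0.435). The nuclear receptor gene Esrrb stood at 0.43 ± 0.13 and the insulin receptor gene Insr at 0.25 ± 0.11, also without overlap. Of 21 metabolic regulators, 13 were above 0 and 8 below, from -0.73 to 1.02, with a median of 0.04. At an unadjusted p under 0.05, 4 were higher and 0 lower, and 4 were higher without overlap, beside 2.91% and 6.39% of all genes in the higher direction. Txnip, an inhibitor of glucose uptake, had 1350.4, 1066 and 474 CPM with both agents and 650.4, 369 and 405 CPM with sorafenib, so replicate 3 of both agents lay within the sorafenib range. Medians were 0.05 for 30 fatty acid oxidation genes, 0.02 for 53 nuclear respiratory chain genes, -0.03 for 13 mitochondrial mRNAs and 0.07 for 36 cytosolic ribosomal protein genes, and leaving out 1 library turned the sign of the last 3. Of these 4 lists, 1 respiratory chain gene and no other member had an unadjusted p under 0.05. The 24 genes of p53 targets and apoptosis had a median of -0.03, also with 0 at that threshold.

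Cyp1a1, the drug-metabolizing target of the aryl hydrocarbon receptor, had 92.2, 58.6 and 42.2 CPM in hearts with both agents and 62.4, 44.8 and 60.6 CPM with sorafenib. The groups overlapped (0.20 ± 0.29, adjusted p = 0.958), and the sign turned to -0.15 without replicate 1 of both agents. PLX3397 hearts had 9.85, 12.1 and 12.3 CPM and controls 3.21, 5.62 and 3.16 CPM, a difference of 1.51 ± 0.32 without overlap, where edgeR called 0 genes in all between PLX3397 and control hearts. Ahr, the receptor's own gene, had 11.1, 10.7 and 10.7 CPM with both agents and 8.99, 9.12 and 6.54 CPM with sorafenib (0.40 ± 0.16, adjusted p = 0.720). The receptor gene was thus higher in every library with both agents, while its target was not.

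Pde2a, named in the study's title, encodes a phosphodiesterase that breaks down cAMP and cGMP and is activated by cGMP. Pde2a (mm10, chr7:101421691-101512827) had 56.9, 59.8 and 56.2 CPM in hearts with both agents and 76.2, 76.5 and 66.9 CPM in hearts with sorafenib. The libraries with both agents were all lower, and in the range of PLX3397 hearts at 68.8, 63.9 and 44.5 CPM and controls at 62.9, 49.5 and 57.6 CPM. The difference was -0.34 ± 0.13 (adjusted p = 0.715) and ranged from -0.40 to -0.31 over the alternatives. Heart RNA sums Pde2a over all cell types, so its level in macrophages was not measured. Pde1c, a calcium-dependent phosphodiesterase, stood at 0.27 ± 0.10, and 11 of 16 phosphodiesterase genes were below 0 with a median of -0.20. Leaving out sorafenib replicate 2 gave a median of -0.05, and leaving out replicate 1 or 3 of the combination gave -0.09 or -0.13. Adcy6, a cardiac adenylate cyclase, stood at 0.27 ± 0.12.

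Growth and division genes gave mixed values. Etv5, an ETS factor induced by ERK signalling, had the smallest p of the genes named by p. Etv5 (mm10, chr16:22381309-22439719) had 22.2, 16.4 and 19.5 CPM in hearts with both agents and 12.5, 12.02 and 10.9 CPM with sorafenib, with PLX3397 hearts at 15.2, 15.4 and 14.8 CPM and controls at 14.7, 12.6 and 15.1 CPM. Sorafenib libraries were thus the lowest and those with both agents the highest of the 12 (0.71 ± 0.12, adjusted p = 0.169), and the difference ranged from 0.60 to 0.81 over the alternatives. Some other ERK-responsive genes went the other way, with Egr3 at -0.83 ± 0.29 and Dusp6, a phosphatase that inactivates ERK, at -0.31 ± 0.12. Over 27 such genes, 8 were above 0 and 19 below, with a median of -0.12, or -0.30 without replicate 2 of both agents. At an unadjusted p under 0.05, 2 were higher and 3 lower, beside 2.91% and 3.53% of all genes. Among cell division genes, Mki67, of the proliferation antigen Ki-67, had 4.30, 3.48 and 4.57 CPM with both agents and 6.32, 6.02 and 8.74 CPM with sorafenib (-0.77 ± 0.22, adjusted p = 0.583). Ccna2, a cyclin, had 1.48, 1.40 and 1.84 CPM with both agents and 2.37, 3.03 and 2.64 CPM with sorafenib (-0.77 ± 0.21), and both genes were lower in every library. Of 32 division genes 5 were lower and 1 higher at an unadjusted p under 0.05, beside 3.53% and 2.91% of all genes. In all, 25 were below 0, with a median of -0.21. This median was -0.42 without replicate 3 of both agents, -0.33 without sorafenib replicate 2, -0.14 without sorafenib replicate 3 and -0.09 with limma. The higher one, Cenpf, of the kinetochore, stood at 0.52 ± 0.17, and cell types of the dividing cells cannot be told from heart RNA.

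Vessel genes were near 0. The 20 endothelial markers had a median of 0.0034, between -0.23 and 0.23. Nos3, the endothelial nitric oxide synthase, had 25.1, 26.3 and 24.1 CPM with both agents and 30.4, 32.0 and 27.5 CPM with sorafenib (-0.25 ± 0.09, adjusted p = 0.669). Angpt1, a vessel-stabilizing ligand of the receptor TIE2, had 31.3, 36.8 and 38.8 CPM with both agents and 61.6, 48.5 and 57.7 CPM with sorafenib (-0.65 ± 0.17, adjusted p = 0.492). Both were lower in every library with both agents. Of 23 angiogenic and vasoactive genes 2 were higher and 4 lower at an unadjusted p under 0.05, beside 2.91% and 3.53% of all genes. The list had a median of -0.08. That median was 0.04 without sorafenib replicate 2 and 0.02 without replicate 3 of both agents. Ednrb, an endothelin receptor gene, stood at -0.50 ± 0.15. Nerve-associated myelin and Schwann cell genes were lower in 10 of 11, with a median of -0.31 and -0.38 in PLX3397 hearts against controls.

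**Figure D5:**
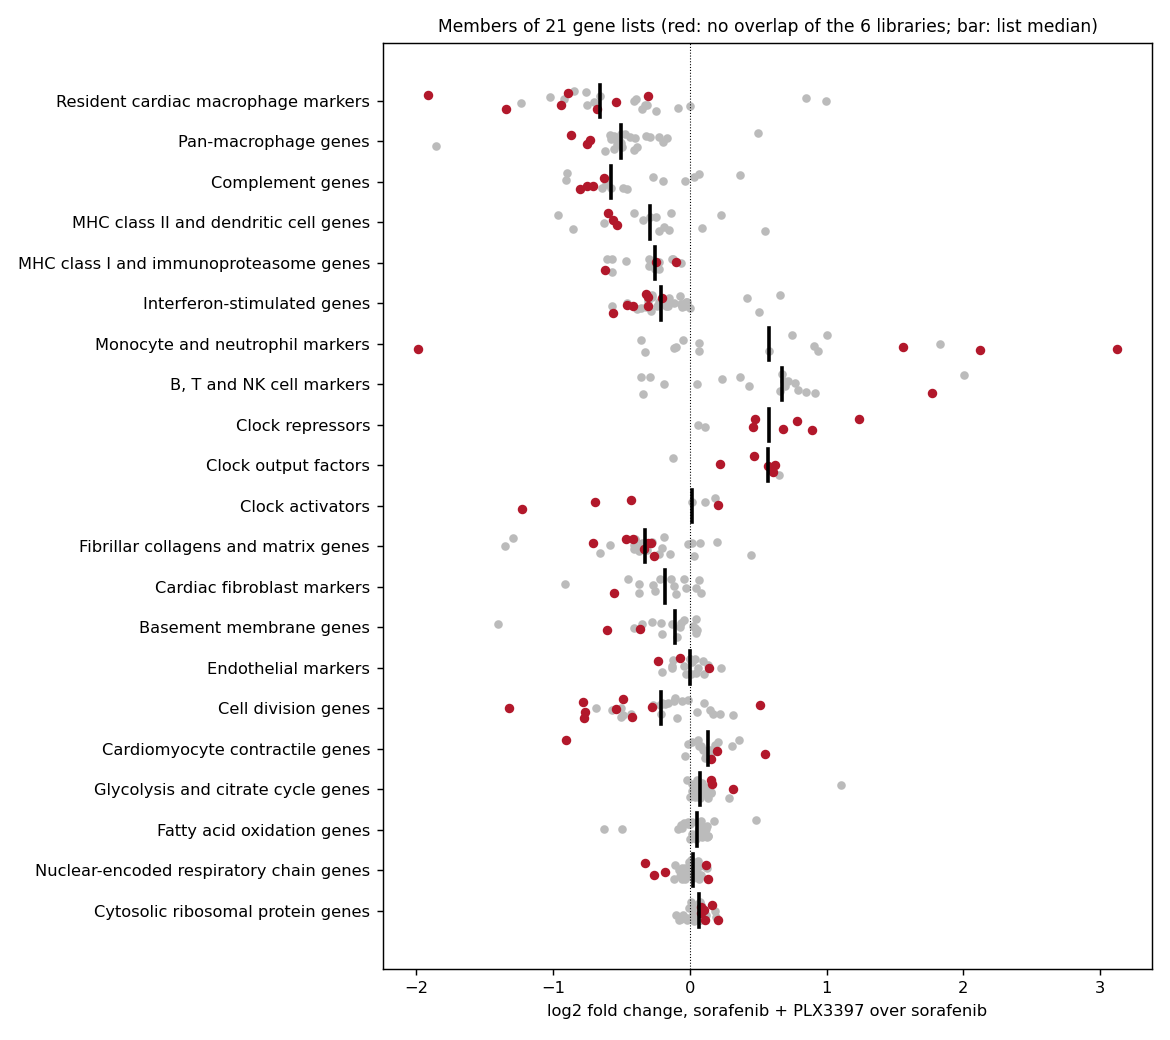
Log2 fold change (sorafenib plus PLX3397 over sorafenib) of every tested member of 21 gene lists, 1 point per gene, with a bar at the list median. Red points are genes whose 6 libraries do not overlap between the groups. Macrophage, complement, antigen presentation and matrix lists lie left of 0 and clock repressors and output factors right of it, while respiratory chain and ribosomal genes lie close to 0.

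Outside the lists, the genes with the smallest p among those without overlap included Ehd4, of membrane recycling, with 551, 492 and 426 CPM in hearts with both agents and 379, 354 and 322 CPM with sorafenib (0.48 ± 0.10, adjusted p = 0.417). Mid1ip1, which promotes fatty acid synthesis, had 167, 121 and 171 CPM with both agents and 80.1, 105 and 73.7 CPM with sorafenib (0.83 ± 0.18, adjusted p = 0.435). Irx3, a homeobox factor of ventricular conduction, had 37.4, 30.0 and 24.9 CPM with both agents and 17.8, 23.5 and 15.02 CPM with sorafenib (0.71 ± 0.17). Control hearts had lower means than either group, 292 ± 20.1 CPM for Ehd4, 66.6 ± 14.6 CPM for Mid1ip1 and 17.0 ± 2.14 CPM for Irx3 (SD, n = 3). Ppat, of purine synthesis, was higher at 0.56 ± 0.13, and so was Septin2 at 0.39 ± 0.09, a cytoskeletal GTPase gene with another overlapping row of the same symbol. Reads cannot be divided with certainty between the Septin2 rows.

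The lower genes of that kind were led by Hr, a corepressor of nuclear receptors, with 8.67, 8.95 and 6.01 CPM in hearts with both agents and 13.9, 14.4 and 18.2 CPM with sorafenib (-0.98 ± 0.20, adjusted p = 0.417). Cacna1g, a T-type calcium channel of pacemaker tissue, had 10.1, 12.2 and 11 CPM with both agents and 22.1, 15.8 and 16.7 CPM with sorafenib (-0.71 ± 0.15). Hlx, a homeobox factor, had 3.63, 2.73 and 3.03 CPM with both agents and 4.60, 6.09 and 6.04 CPM with sorafenib (-0.83 ± 0.17). For Hr the hearts with both agents were lower than all other libraries of the study, while for Cacna1g they overlapped the controls, at 14.2, 14.2 and 11.2 CPM. Matrix-related genes were in this group as well, Ecm2 at -0.57 ± 0.12, the type V collagen gene Col5a3 at -0.78 ± 0.17 and Creb3l1, a factor that drives collagen secretion, at -0.77 ± 0.17. The cytoplasmic actin genes Actb and Actg1 stood at -0.40 ± 0.09 and -0.39 ± 0.09, and the membrane traffic gene Praf2 at -0.78 ± 0.18. Actb had 151, 164 and 163 CPM with both agents and 191, 206 and 234 CPM with sorafenib, so a gene often used as a loading control was lower in every library with both agents. Adjusted p-values in edgeR were 0.417 to 0.435 for Cacna1g, Hlx, Ecm2, Col5a3, Creb3l1, Praf2, Actb and Actg1, and also for Irx3 and Ppat.

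Whether PLX3397 acted differently with sorafenib than without it was tested as the interaction, the log2 difference under sorafenib minus that between PLX3397 and control hearts. The quasi-likelihood test of edgeR called 0 of 18897 genes (0%), with a smallest adjusted p of 0.530 and 1099 genes (5.82%) at an unadjusted p under 0.05, while the Wald test of DESeq2 called 5 and limma on FPKM 0 with 1097. So a difference between the settings was not shown for any gene in edgeR. Among genes of at least 1 FPKM, the smallest p belonged to Alpl, of alkaline phosphatase, with 26.9, 27.2 and 22.7 CPM in hearts with both agents, 30.6, 30.8 and 32.2 CPM with sorafenib, 26.4, 31.0 and 30.1 CPM with PLX3397 and 23.4, 22.1 and 22.8 CPM in controls. Alpl was thus lower with both agents than with sorafenib and higher with PLX3397 than in controls, an interaction of -0.64 ± 0.13 (adjusted p = 0.822). Dstyk, a kinase gene (-0.64 ± 0.14), and Rnf144b, a ubiquitin ligase gene (-0.69 ± 0.15), had the same pattern of signs. Ciart had an interaction of 1.79 ± 0.39, with PLX3397 hearts at -0.55 ± 0.29 from controls, and the predicted gene Gm4149 one of 1.17 ± 0.26. For Csf1r the interaction was -0.45 ± 0.24, for Arntl -1.10 ± 0.39, for Tef 0.54 ± 0.16 and for Ccl9 -0.70 ± 0.24. Adjusted p was 0.822 for each of these last 4.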

How the data were processed

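Poly(A) RNA of mouse heart was sequenced in 12 libraries after dUTP second-strand synthesis, per the labels' protocols. The deposited estimated counts are whole numbers whose low values pile up at multiples of 4 (12143 values of 4, 5303 of 3 and 3364 of 5), so they may not count single fragments. The deposited FPKM values were scaled for length and library size, per the file headers. The build was mm10 and DESeq2 and edgeR were used upstream, per the submitters' processing notes. What aligned and counted the reads, and whether strand was used, is not given in the sources used here, so overlapping and near-identical genes are uncertain.

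Groups came from sample titles. Estimated counts, already whole, entered R 4.3.3 with edgeR 4.0.16: filterByExpr (minimum count 10, minimum total 15) kept 18897 of 30199 genes, TMM scaled the libraries, and a quasi-likelihood model (robust setting, 1 coefficient for each group) took in all 12 libraries. The p-values were two-sided and Benjamini-Hochberg adjusted over the genes kept, with a threshold of 0.05, and SE was derived from the F statistic.

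The 47 gene lists, the comparison and its members were chosen with earlier results of these data known, so they are no independent support. Lists got no test of their own, and 12 members were not in the table or had too few counts. List scores are the mean log2 CPM (prior count 2) minus the mean of the sorafenib libraries. The named genes were 13 chosen whatever their result, the 10 smallest p in each direction among genes of at least 1 FPKM without overlap or a predicted symbol, up to 4 smallest p per list, up to 5 smallest DESeq2 p per direction, and the 5 smallest interaction p. Genes outside that rule are marked in the text as picked with their values in view.

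The alternatives tried were: no filter, a stricter filter (1 CPM in 3 libraries), the size factors and Wald test of DESeq2 1.42.0, limma 3.58.1 on log2 of FPKM plus 0.5, only the groups compared, the replicate number as a block, counts divided by 4, mitochondrial genes removed, and each library left out. RefSeq promoters came from GRCm38.p6.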

Additional observations from a re-analysis of the deposited data

How the results depend on the processing

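The count of 0 called genes between sorafenib plus PLX3397 and sorafenib held in edgeR without a filter, with the stricter filter, with DESeq2 size factors, with only the groups compared, with counts divided by 4 and without mitochondrial genes, and in limma on FPKM. DESeq2's Wald test called 65. Leaving out 1 library gave 0 to 2 calls: Gm10241 and Smt3h2-ps4 without sorafenib replicate 2, S100a9 without sorafenib replicate 3, Col3a1 and Phc3 without replicate 1 of both agents, and Evi2b without replicate 3 of both agents. The interaction, which needs all 4 groups, had 0 calls under the same settings other than only the groups compared, 5 with DESeq2 (Alpl, Gm12758, Gm14434, Gm20507 and Rhox2h), and 0 to 2 with 1 library left out, where Mbp was called without PLX3397 replicate 1. These genes, other than S100a9, Col3a1 and Alpl, were chosen after their values were seen. The count of 2380 genes without overlap was 3929 to 4674 with 1 library left out, when fewer libraries are compared, and 1885 to 2693 under the other settings. This count's alternatives were added after the data were seen.

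The labels do not say that replicate numbers pair the libraries. Deviations of same-numbered libraries had correlations of -0.04, 0.06 and 0.05, and those of different-numbered libraries -0.14 to 0.10. With so few libraries these values cannot decide whether there was a pairing. With the replicate number as a block 0 genes were called in either test. Of 1643 values for 110 of the genes named here, 7 changed sign. Other named genes, among them Lyve1, C1s1 and C1ra with values near 0, were not covered by that count. Kit was at 0.0030 with limma, 0.0061 with the block, and between -0.35 and 0.62 with 1 library left out (above 0 when replicate 2 of sorafenib or replicate 3 of the combination was left out). With 1 library left out Nppa lay between -1.55 and 0.41 (above 0 without sorafenib replicate 1), Cyp1a1 between -0.15 and 0.43 and Myh6 between -0.027 and 0.25 (both below 0 without replicate 1 of both agents). The causes were not tested. Among 704 medians of 47 lists, 27 moved by more than the spread between libraries and 31 changed sign. The mitochondrial list had no value without its genes. A pseudocount of 0.1 on FPKM, planned for FPKM as the main unit, was not run. The median SE of 0.12 limits what 3 libraries per group can show for single genes.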
